A study of Danio rerio with 6 samples.

Results

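The genes examined here encode the pore-forming and auxiliary subunits of voltage-gated potassium (Kv) channels. They were chosen by symbol, as every gene of the kcna, kcnb, kcnc, kcnd, kcne, kcng, kcnh, kcnq, kcns and kcnv families with a numbered symbol together with the Kv channel interacting proteins (kcnip). The rule itself uses no measured value, but it was set with earlier results of these data known. In total, 57 of 31465 genes met this rule, spread over 11 subfamilies. Inward rectifier (kcnj), tandem-pore (kcnk) and calcium-activated (kcnm, kcnn) channel genes were not included.

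RNA of sorted heart cells of the zebrafish enhancer-trap line sqet33mi59BEt at 72 hours post-fertilization (hpf) was sequenced. In this line GFP marks a ring of cells at the venous pole of the heart, where the pacemaker lies. GFP-positive cells are called sinoatrial ring (SAR) and GFP-negative cells rest of heart (ROH), with 3 libraries of each, numbered 1 to 3. All 6 libraries come from the same untreated line and stage, each replicate was made from the hearts of many pooled embryos, and the GFP domain is defined by where the trapped enhancer is active rather than by a pacemaker gene. Unless said otherwise, the p-values measure the spread between libraries made from such pools, with same-numbered libraries not paired.

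Kv channels open when the membrane depolarizes, and the potassium that leaves the cell through them ends the action potential. In pacemaker cells, their slow closing after each beat contributes to the timing of the next depolarization. The pore is an assembly of alpha subunits (kcna, kcnb, kcnc, kcnd, kcnh, kcnq), some alpha subunits are electrically silent and act only as partners of others (kcng, kcns, kcnv), and kcne and kcnip proteins bind the alpha subunits and change their gating or their transport to the membrane. Many of these genes have more than 1 copy in zebrafish, whose lineage went through an additional genome duplication.

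The estimated read counts summed to between 999437 (ROH replicate 1) and 77243214 (SAR replicate 3) per library. ROH replicate 1 held 321 reads from the 57 genes, with 19 of them at 0 reads, whereas the other libraries held between 3923 and 35826 such reads. The smallest amount taken as detectable, 3 reads, was 2.81 CPM in ROH replicate 1 (CPM is the count relative to the normalized library size) and between 0.0392 and 0.438 CPM in the others, and this covers counting error only. Cardiomyocyte markers (7 of 10 listed symbols) were found in every library. Their level is given in TPM, the transcript abundance scaled to transcript length and library total. They summed to 3545, 3889 and 1024 TPM in SAR replicates 1 to 3 and to 1293, 1341 and 742 TPM in ROH replicates 1 to 3. SAR replicate 3 was thus below the other SAR libraries and within the ROH range. Of 8 tested cardiomyocyte genes, 1 was called higher in SAR and 0 lower. Of 7 tested pacemaker markers 1 was called higher in SAR, the channel gene hcn4 (ENSDARG00000061685, log2 fold change 2.83), whereas isl1 (-1.56), shox2 (0.37) and the second gene of the hcn4 name (ENSDARG00000074419, 1.15) were not called. The markers bmp4 (1.21, adjusted p = 0.0246) and tbx2b (0.98, adjusted p = 0.0283) passed the adjusted threshold in edgeR but not the fold threshold. The 7 markers summed to 155 to 179 TPM in SAR and 86.3 to 153 TPM in ROH. Other cell types differed between the fractions as well. Epicardial markers summed to 672 to 862 TPM in SAR and 81.1 to 116 TPM in ROH, with 5 of 5 called higher, and epidermal markers to 3606 to 5695 against 511 to 695 TPM, with 5 of 7 called higher. Erythrocyte markers (7 of 7 called lower) summed to 13.4 to 24.8 TPM in SAR and 23690 to 39782 TPM in ROH, leukocyte markers had 5 of 6 and endothelial markers 4 of 5 called lower, and no listed marker was at 0 in all libraries. The part of these cell types in the differences below was not tested, and in such bulk samples fewer cells of a type and less RNA per cell cannot be told apart.

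SAR and ROH were compared to ask which Kv channel genes differ between the pacemaker region and the remaining heart cells. The 42 genes that passed the filter on low counts were tested with edgeR's quasi-likelihood test, and a gene was called when its Benjamini-Hochberg adjusted p was below 0.05 and its log2 fold change at least 1.5 in size. Kv channel RNA was more abundant in SAR: the TPM of all 57 genes summed to 255, 242 and 233 in SAR replicates 1, 2 and 3 and to 155, 131 and 157 in ROH replicates 1, 2 and 3. No SAR library overlapped with ROH (1.65-fold in the means), and the ratio stayed between 1.56 and 1.70 when any 1 library was left out. A large part of this sum is the auxiliary subunit gene KCNE4, which was not called. It made up 37.6% to 39.6% of the sum in SAR and 28.3% to 47.9% in ROH. The mean TPM was higher in SAR for 44 of 57 genes (77.2%), compared with 52.3% of all 31465 genes, and lower for 13. In the fitted model 36 of the 42 tested genes had the higher level in SAR and 6 the lower, against a background of 52.3% higher among all 21969 tested genes. Some of the 36 lay near 0 and changed sign when a library was left out. The median log2 fold change was 0.57 over the 42 genes and 0.03 over all tested genes. The tested genes are not the whole family, since passing the filter is easier for a gene that is high in one fraction.

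Of the 42 genes, 4 were called higher in SAR (9.52%, background 2.84%), among them kcnh6a, kcnip1b and kcnq5a. None was called lower (background 3.7%), although 3 genes had a lower level at an unadjusted p below 0.05 in edgeR, and DESeq2 called 2 of these, kcnip4b and kcnv2a, lower. Without the fold threshold, 5 genes had an adjusted p below 0.05 in the direction of SAR (background 4.88%), the fifth being kcnd3, and 0 in the direction of ROH (background 5.45%). In CPM, all SAR libraries lay above all ROH libraries for 13 of the 42 genes (31.0%, background 14.3%) and below them for 3 (background 15.6%). With the smallest library, ROH replicate 1, left out, the number called higher was also 4.

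**Figure D1:**
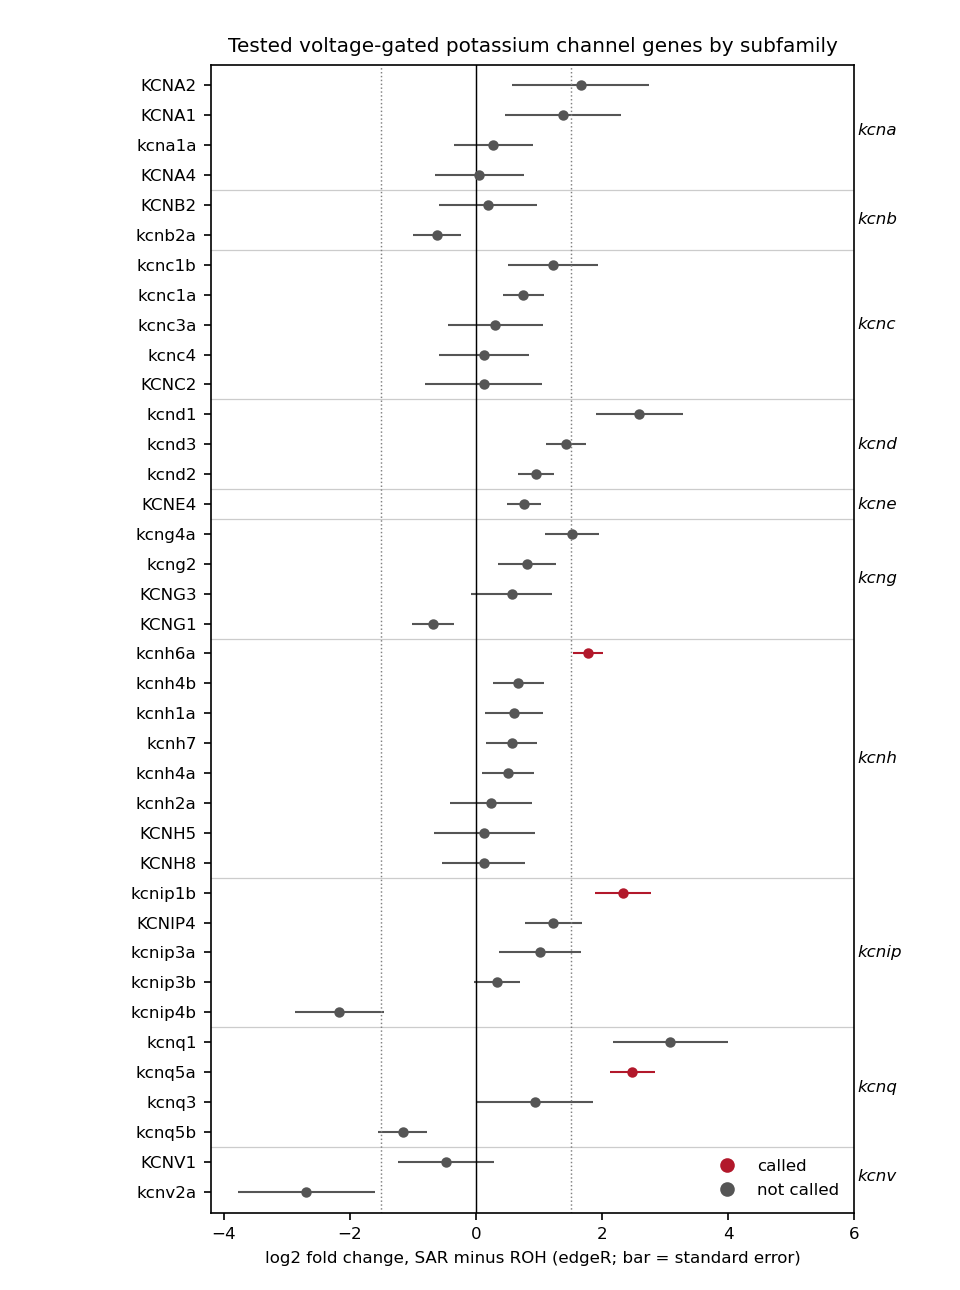
Log2 fold change between SAR and ROH (horizontal axis, SAR minus ROH, edgeR) of 38 of the 42 tested Kv channel genes, grouped by subfamily. Points are estimates, bars are standard errors, dotted lines mark 1.5 on either side of 0 and red points are called genes. Most points lie to the right of 0, and those on the left come from kcnb2a, KCNG1, kcnip4b, kcnq5b, KCNV1 and kcnv2a.

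The subfamilies did not contribute alike. The summed TPM of kcnd, kcne, kcnh, kcnip and kcnq was higher in every SAR library than in every ROH library, that of kcnv was lower in every SAR library, and the sums of kcna, kcnb, kcnc, kcng and kcns overlapped. For kcnip the fractions nearly met, with a lowest SAR sum of 35.1 TPM and a highest ROH sum of 34.7 TPM. The largest ratio of SAR over ROH belonged to kcnq, at 26.9, 24.0 and 26.3 TPM in SAR against 9.14, 8.71 and 9.67 TPM in ROH (2.80-fold), followed by kcnd at 18.8, 17.3 and 19.8 against 5.76, 5.55 and 9.01 TPM (2.75-fold). The kcnq sum was uneven over its genes, since kcnq5a alone held 34.3% to 57.5% of it in SAR and 11.9% to 33.5% in ROH. The kcnq genes made up 9.90% to 11.3% of all Kv channel TPM in SAR and 5.89% to 6.65% in ROH, and the kcnd genes 7.15% to 8.49% and 3.72% to 5.73%. These 2 shares were therefore higher in every SAR library than in every ROH library. The shares of kcnb (0.555% to 0.792% in SAR, 0.926% to 1.82% in ROH) and kcnv (0.232% to 0.396% and 0.754% to 4.86%) were lower in every SAR library. Those of the other subfamilies overlapped, among them kcne (37.6% to 39.6% in SAR, 28.3% to 47.9% in ROH) and kcnip (15.1% to 22.6% and 14.7% to 26.5%).

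**Figure D2:**
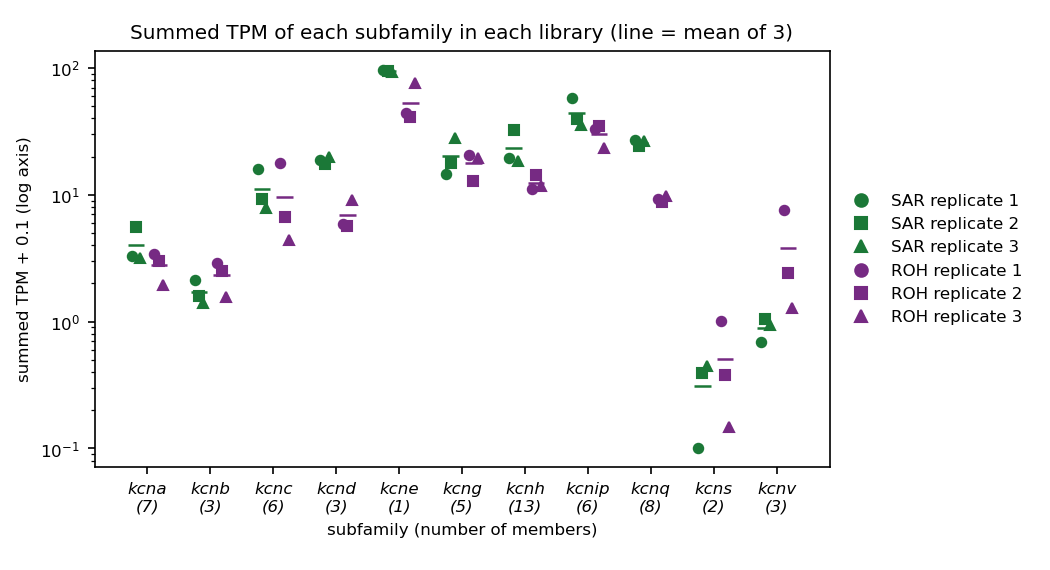
Summed TPM of the 11 subfamilies (number of genes in parentheses) in the 6 libraries, plotted as TPM + 0.1 on a log axis. Symbols are libraries and lines are means of 3. Of the sums that are higher in SAR, kcnq and kcnd have the largest ratio of means (2.80 and 2.75), and the high kcnv and kcns points in ROH belong to ROH replicate 1.

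The kcnq genes encode Kv7 alpha subunits. Of 8 genes, 7 were tested, 6 had the higher level in SAR and 2 were called higher. Among all tested genes, 52.3% had the higher level in SAR and 2.84% were called higher. kcnq5a, a subunit of the M-type current that dampens excitability in mammalian neurons and arterial smooth muscle, measured 12.5, 8.21 and 15.1 TPM in SAR and 1.09, 1.68 and 3.24 TPM in ROH. The groups were well apart, with a log2 fold change of 2.48 (SE 0.36, adjusted p = 0.00546, edgeR), a 5.58-fold difference. Its copy kcnq5b went the other way, at 1.61, 1.17 and 1.41 TPM in SAR and 2.68, 3.05 and 3.57 TPM in ROH. Here too the libraries did not overlap, but the log2 fold change of -1.16 (SE 0.39) did not pass the adjusted threshold in edgeR (adjusted p = 0.107).

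kcnq1, which encodes the alpha subunit of the slow delayed rectifier current of the mammalian heart, was uneven within SAR, at 3.90, 4.41 and 0.562 TPM, and measured 1.502, 0.271 and 0.364 TPM in ROH. SAR replicate 3 lay above ROH replicates 2 and 3 and below ROH replicate 1, whose value rests on 2 reads. SAR replicate 3 is also the SAR library with the lowest cardiomyocyte markers, and whether that bears on kcnq1 was not tested. The log2 fold change of 3.08 (SE 0.91) was not called in edgeR (adjusted p = 0.0728), and it passed without SAR replicate 3 (3.60, adjusted p = 0.0131) but not without any other library (2.56 to 3.27, adjusted p up to 0.266). Of 9 other settings, 2 called kcnq1. kcnq3, known for the neuronal M-current, had a log2 fold change of 0.94 that did not pass (adjusted p = 0.631, edgeR). The gene kcnq1.2 was too low to be tested (0 to 9 reads per library).

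The kcnh family encodes the ether-a-go-go type channels, including the ERG channels of the rapid delayed rectifier current. In the fit, all 8 tested of its 13 genes had the higher level in SAR, against 52.3% of all tested genes. Some of these fold changes were smaller than their SE, and that of kcnh2a changed sign without SAR replicate 2. Only 1 gene was called higher (background 2.84%). This was kcnh6a, the ERG gene whose mutations disturb repolarization of the zebrafish heart, at 11.1, 11.7 and 8.32 TPM in SAR and 2.78, 2.89 and 3.19 TPM in ROH. No library of SAR came near those of ROH. The log2 fold change was 1.77 (SE 0.23, adjusted p = 0.00373, edgeR), a 3.42-fold difference and it was called in each of the 6 fits with a library left out and in each of 10 other settings.

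kcnh6a was the leading kcnh gene in SAR, with 36.3% to 57.5% of the summed kcnh TPM, and took 20.4% to 27.6% in ROH. Its copy kcnh6b was low in both fractions (0 to 12 reads per library) and was not tested. kcnh2a, named after the human ERG gene KCNH2, had no such pattern: it measured 0.763, 6.54 and 1.71 TPM in SAR and 2.05, 3.09 and 1.83 TPM in ROH. SAR replicate 2 stood apart from the other SAR libraries, and the log2 fold change of 0.24 (SE 0.65) became -0.88 without it. The second gene of that name, KCNH2, was not tested, with 0 to 28 reads per library. The other tested kcnh genes, among them kcnh4a, kcnh4b and kcnh7, had log2 fold changes of 0.12 to 0.67 and none reached an unadjusted p below 0.05 in edgeR.

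**Figure D3:**
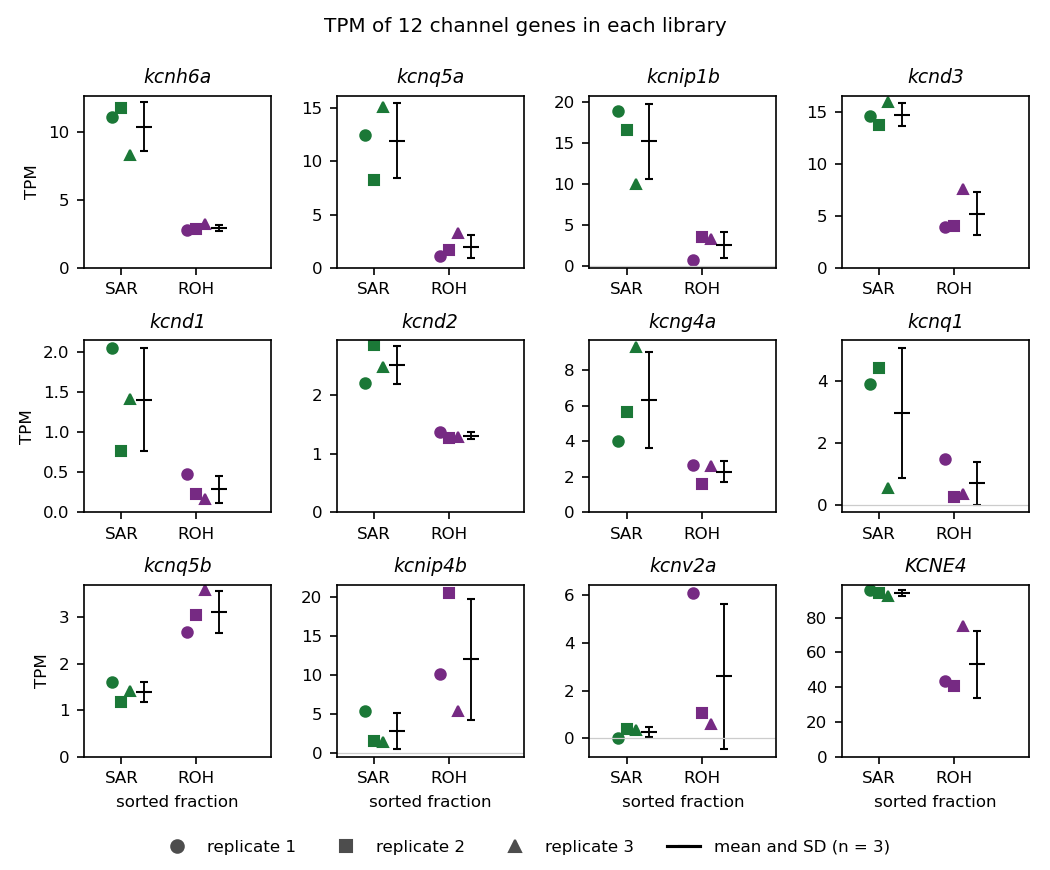
TPM (vertical axes) of 12 Kv channel genes in SAR and ROH. Symbols are the 3 libraries of each fraction, and black lines are the mean and SD (n = 3). In kcnh6a, kcnq5a, kcnip1b and kcnd3 the SAR libraries lie above the ROH libraries without overlap, whereas kcnq5b lies below. kcnq1 overlaps through SAR replicate 3 and ROH replicate 1, where it had 2 reads.

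The kcnd genes encode Kv4 alpha subunits, which carry the transient outward current of early repolarization, and kcnip genes encode their calcium-binding partners. All 3 kcnd genes were higher in every SAR library than in every ROH library, an order that 14.3% of all tested genes had in CPM. kcnd3, the main one, measured 14.6, 13.7 and 15.9 TPM in SAR and 3.92, 4.06 and 7.57 TPM in ROH. Its SAR values were close together, and the log2 fold change of 1.43 (SE 0.31) passed the adjusted threshold (adjusted p = 0.0260, edgeR) but lay just below the fold threshold, and the adjusted p rose above 0.05 (to 0.0556 to 0.121) without SAR replicate 1 or 3 or ROH replicate 1 or 2. kcnd1, at 2.04, 0.760 and 1.42 TPM in SAR against 0.473, 0.225 and 0.162 TPM in ROH, had a larger log2 fold change of 2.59 (SE 0.69) but an adjusted p of 0.0505 in edgeR. Its ROH replicate 1 value is a single read. Its levels in SAR replicates 2 and 3 (1.29 and 2.44 CPM) lay below the 2.81 CPM of 3 reads in ROH replicate 1. kcnd1 was called in edgeR without SAR replicate 2 (2.93, adjusted p = 0.0271) but not without any of the other 5 libraries (2.22 to 2.76, adjusted p up to 0.236). Of 8 other settings, 3 called kcnd1. kcnd2, at 2.19, 2.85 and 2.47 TPM against 1.37, 1.26 and 1.28 TPM, had a log2 fold change of 0.95 (SE 0.28, adjusted p = 0.0740, edgeR).

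Among the kcnip genes, 5 of 6 were tested and only kcnip1b was called higher (background 2.84%). It encodes a copy of KChIP1, which in mammals is found mainly in neurons, and measured 19.0, 16.6 and 10.04 TPM in SAR and 0.721, 3.57 and 3.32 TPM in ROH. The groups did not overlap, and the ROH replicate 1 value is a single read. The log2 fold change was 2.33 (SE 0.44, adjusted p = 0.0146, edgeR), a 5.04-fold difference. The call was lost without ROH replicate 2 (2.48, adjusted p = 0.0541). Neuronal markers summed to 606 to 946 TPM in SAR and 384 to 776 TPM in ROH. Of 9 tested, 2 (gap43 and phox2bb) were called higher and 0 lower, and sypb lay in the other direction (log2 fold change -1.48, not called). Smooth muscle markers summed to 3572 to 3986 TPM in SAR and 1292 to 2784 TPM in ROH, without overlap and with 0 of 4 called. The part of both cell types in the values of the kcnip and kcnq genes was not tested.

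KCNIP4, the second most abundant Kv channel gene, measured 17.0, 9.94 and 16.2 TPM in SAR and 10.9, 3.32 and 7.40 TPM in ROH. The TPM ranges overlapped through SAR replicate 2 and ROH replicate 1. The log2 fold change of 1.22 was not called. Its copy kcnip4b lay in the opposite direction, at 5.38, 1.45 and 1.39 TPM in SAR and 10.1, 20.6 and 5.36 TPM in ROH. SAR replicate 1 and ROH replicate 3 were level, and the log2 fold change of -2.17 (SE 0.71) had an adjusted p of 0.0976 in edgeR. It ranged from -3.19 without SAR replicate 1, where it was called (adjusted p = 0.0126, edgeR), to -1.45 without ROH replicate 2 (adjusted p = 0.395). kcnip3a and kcnip3b had log2 fold changes of 1.01 and 0.33, neither past the test. KCNIP2, whose mammalian counterpart is required for the transient outward current of the heart, was not tested, with 0 to 29 reads per library.

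Of the kcne genes, which encode single-pass beta subunits, KCNE4 was the only one that the symbol rule found. It was the most abundant Kv channel gene, at 95.8, 94.0 and 92.3 TPM in SAR and 43.8, 40.6 and 75.3 TPM in ROH, and made up 37.6% to 39.6% of the summed Kv channel TPM in SAR. In mammalian cells KCNE4 inhibits some KCNQ1 and Kv1 channels. The SAR libraries all lay above the ROH libraries, by 1.70-fold in the fit (log2 fold change 0.76, SE 0.27), but the difference was not called in edgeR (adjusted p = 0.118).

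The silent subunits of the kcng, kcns and kcnv families, which modify Kv2 channels, were mixed. KCNG1 measured 6.39, 7.50 and 8.90 TPM in SAR and 15.9, 7.43 and 12.9 TPM in ROH, overlapping through ROH replicate 2 (log2 fold change -0.68). kcng4a measured 3.99, 5.66 and 9.29 TPM in SAR and 2.66, 1.59 and 2.62 TPM in ROH without overlap. Its log2 fold change of 1.52 (SE 0.42) had an adjusted p of 0.0578 in edgeR and of 0.0499 without SAR replicate 1 (1.70), and reached 0.252 without ROH replicate 2 (1.27). kcng2 was also higher in every SAR library, with a log2 fold change of 0.81 that did not pass. The kcng2 value of ROH replicate 1 rests on 2 reads.

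The kcnv sum was 0.591, 0.957 and 0.841 TPM in SAR and 7.53, 2.31 and 1.18 TPM in ROH. The ratio of the means, 0.217, became 0.457 without ROH replicate 1. kcnv2a, whose human counterpart is best known from photoreceptors, was the most abundant of the 3 kcnv genes in every ROH library, at 0, 0.385 and 0.355 TPM in SAR and 6.11, 1.06 and 0.615 TPM in ROH, with 8 reads in ROH replicate 1. Its log2 fold change of -2.69 (SE 1.09) was not called in edgeR (adjusted p = 0.176), and was -1.59 without ROH replicate 1 and -3.36 without ROH replicate 3. Photoreceptor markers summed to 62.0 to 227 TPM in SAR and 351 to 1156 TPM in ROH, highest in ROH replicate 1, with 0 of 8 called, and their part in the kcnv2a values was not tested. The 2 kcns genes, both with the symbol KCNS3, were not tested (at most 24 reads in a library), and the ratio of their summed means, 0.521, became 1.32 without ROH replicate 1.

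The kcna (Kv1), kcnb (Kv2) and kcnc (Kv3) genes include delayed rectifiers and fast-spiking channels of neurons. Taken singly they were low, the highest mean over the 6 libraries being 3.13 TPM (KCNC2). The kcnc genes together summed to 7.78 to 15.9 TPM in SAR and 4.34 to 17.8 TPM in ROH. Of the 16 kcna, kcnb and kcnc genes, 12 were tested and none was called. kcnc1a was the clearest, at 3.48, 2.81 and 2.75 TPM in SAR and 1.60, 1.67 and 1.07 TPM in ROH, a log2 fold change of 0.75 at an unadjusted p of 0.0467 in edgeR that did not hold after adjustment (adjusted p = 0.202). kcnb2a measured 0.855, 0.769 and 0.841 TPM in SAR and 1.65, 1.62 and 1.12 TPM in ROH, below in every SAR library, with a log2 fold change of -0.62 that did not pass. The 4 tested kcna genes had log2 fold changes of 0.05 to 1.66 and overlapped between the fractions. For KCNA4, kcna1a, KCNB2, KCNC2, kcnc3a and kcnc4 the sign changed when a library was left out, so no direction is given.

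Pairs of copies were compared within each library, which does not depend on the total amount of Kv channel RNA. Genes with the same symbol stem formed 18 pairs, of which 15 reached a summed mean of 1 TPM and were compared by the log2 ratio of their TPM (each + 0.1) in an exact two-sided permutation test over the libraries. In 2 of the 15 pairs the ratios of SAR and ROH did not overlap. A pair without any difference separates in this way at a rate of 0.1, so the count alone shows no difference. kcnq5a made up 88.6%, 87.5% and 91.5% of the kcnq5 TPM in SAR but 28.9%, 35.5% and 47.5% in ROH. The more abundant copy was thus kcnq5a in every SAR library and kcnq5b in every ROH library. The share in ROH replicate 1 rests on 3 reads of kcnq5a and 7 of kcnq5b. The log2 ratio of kcnq5a to kcnq5b was 2.97 ± 0.32 in SAR and -0.73 ± 0.55 in ROH (SD, n = 3, exact permutation p = 0.1).

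KCNIP4 made up 76.0%, 87.3% and 92.1% of the kcnip4 TPM in SAR and 51.8%, 13.9% and 58.0% in ROH. In ROH replicate 1 this rests on 4 reads of KCNIP4 and 22 of kcnip4b. KCNIP4 has the shorter transcripts. The log2 ratio of KCNIP4 to kcnip4b was 2.60 ± 0.91 in SAR and -0.68 ± 1.67 in ROH (SD, n = 3, exact permutation p = 0.1). With 3 against 3 libraries, 0.1 is the smallest p this test can give, and over the 15 pairs the smallest adjusted p was 0.625, so no pair passed. The other 13 pairs overlapped: kcnip3a, for example, took 45.0% to 70.5% of its pair in SAR and 43.7% to 75.1% in ROH. How reads shared by similar copies are divided is a choice of the quantifier, which makes the split between near-identical copies uncertain.

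**Figure D4:**
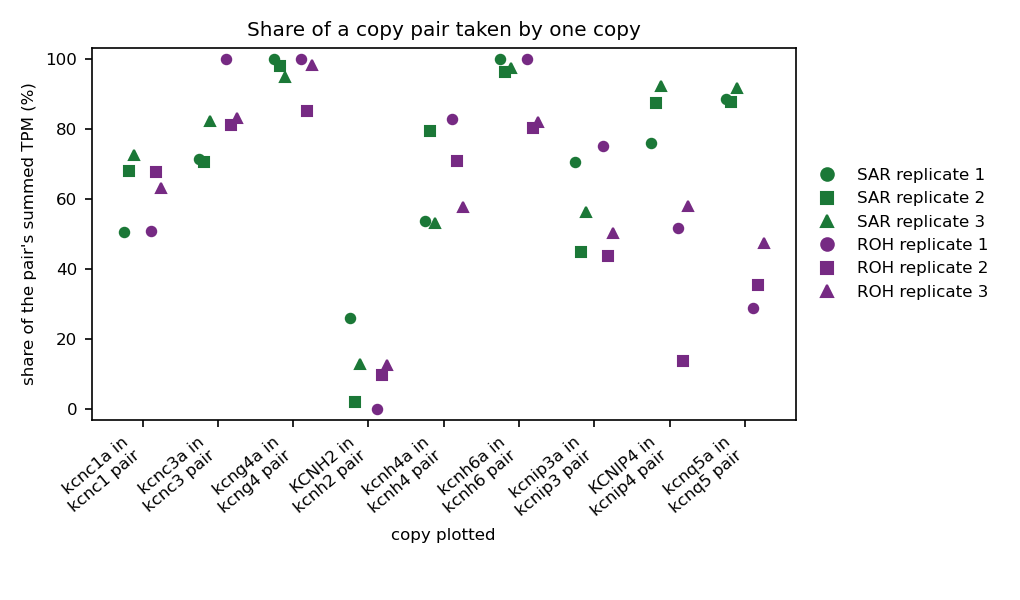
Share of the summed TPM of a pair (percent, vertical axis) taken by the copy named on the horizontal axis, for 9 pairs with a mean summed level of at least 2.5 TPM. Symbols are the 6 libraries. The shares of kcnq5a and KCNIP4 lie higher in all SAR libraries than in all ROH libraries, and in the other 7 pairs the fractions overlap.

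The transcript length that the quantifier assigns to a gene is weighted by the abundance of its transcripts and so changes with transcript use. Of the 42 tested genes, 30 had a length that varied over the libraries. In SAR it was longer without overlap for 1 gene, kcnq3 (1155, 1066 and 1156 bases against 678, 730 and 1027 in ROH, with 2 reads in ROH replicate 1), and shorter for 1 gene. That is 3.33% in each direction, close to the 4.81% and 4.15% among all tested genes with a varying length. The length of kcnh6a was 4417 to 4564 bases in SAR and 4627 and 4680 in ROH replicates 2 and 3, with 2292 in ROH replicate 1, where the gene had 11 reads.

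Genes that encode other partners of Kv channels, taken from a list of 22 symbols with any copy suffix, were compared in the same fit. Of 31 genes found, 28 were tested, 18 of them (64.3%, against 52.3% of all tested genes) had the higher level in SAR, 2 (7.14%, against 2.84%) were called higher and 0 (against 3.7%) lower in edgeR, and the median log2 fold change was 0.26, against 0.03 over all tested genes. dlg2, a copy of the scaffold protein PSD-93 that clusters channels at the membrane, measured 10.9, 7.98 and 17.0 TPM in SAR and 3.33, 4.37 and 2.58 TPM in ROH, a log2 fold change of 1.81 (SE 0.36, adjusted p = 0.0169, edgeR). dpp6b, a copy of DPP6, the transmembrane partner that speeds Kv4 channels in mammalian neurons, measured 3.26, 2.58 and 1.96 TPM in SAR and 1.21, 0.806 and 0.610 TPM in ROH. The libraries of SAR and ROH did not overlap for either gene, and dpp6b had a log2 fold change of 1.74 (SE 0.45, adjusted p = 0.0466, edgeR). Neither call is secure: that of dpp6b was lost whichever library was left out (adjusted p = 0.0533 to 0.202, edgeR), and that of dlg2 without SAR replicate 3, ROH replicate 2 or ROH replicate 3 (adjusted p = 0.0630, 0.0897 and 0.0630). The other gene of the DPP6 name, which had a higher mean than dpp6b (3.29 against 1.74 TPM), was not called (log2 fold change 0.62, adjusted p = 0.330, edgeR). The silent subunit gene kcnf1a was higher in every SAR library but was not called (log2 fold change 2.67, adjusted p = 0.0661, edgeR). Its ROH replicate 1 value is a single read, and its level in SAR replicate 3 (1.37 CPM) lay below the 2.81 CPM of 3 reads there. The calmodulin genes, whose product binds Kv7 channels, had log2 fold changes of -0.21 to 0.54 and none was called.

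The 15 genes not tested held between 12 and 84 reads over the 6 libraries together, with at most 39 in any library. Their highest level in a library was 1.59 TPM, and 13 of them were at 0 reads in ROH replicate 1. The filter on low counts left them out, so no test of a difference between SAR and ROH was made. The KCNH5 gene ENSDARG00000069117 was the only one of them whose CPM and TPM were higher in every SAR library than in every ROH library. Among all tested genes 14.3% had this order in CPM. It came from 3, 39 and 31 reads in SAR replicates 1 to 3 and 0, 5 and 2 reads in ROH replicates 1 to 3. Its SAR levels (0.405 to 1.14 CPM) lay below the 2.81 CPM of 3 reads in ROH replicate 1, so the 0 there tells little.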

How the data were processed

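Cells of dissociated hearts were sorted into GFP-positive (SAR) and GFP-negative (ROH) fractions, and fraction and replicate number were taken from the labels. cDNA was made with SMART-Seq v4 and paired 75 bp reads were sequenced. Per the labels, bcl2fastq (2.16.10), cutadapt and Salmon were used with GRCz11. The annotation was Ensembl Genes 92, and the version of Salmon is not given in the sources used here. The authors deposited, for each of 31465 genes, an estimated count, which Salmon computed from the reads, and a TPM value, normalized to transcript length and library total. Comparisons of the authors in the supplementary tables were not used. Gene symbols came from the supplementary tables where they name the Ensembl identifier (2721 genes) and otherwise from a table of gene names, which has some in human capitals, so that pairs of genes can share a symbol. Some genes that met the rule are counted but not reported by name. No coordinates or sequences are given, since no genome of this build was used here.

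Estimated counts were rounded, filtered with filterByExpr (minimum count 10, minimum total 15), normalized by TMM and tested with edgeR (4.0.16, R 4.3.3) in a model with fraction alone, with Benjamini-Hochberg adjustment over the 21969 genes tested. Levels between genes are compared in TPM. The methods were tested on simulated data. Genes named with values were the called genes, the 10 with the highest mean TPM, genes of the cardiac repolarizing currents, the copies of any of these, and those with an unadjusted p below 0.05; kcng2 and kcnf1a, the length example kcnq3, and kcnh7 with the kcnh4 copies were chosen after their values were seen. The members and lists were chosen with earlier results of these data known. Alternatives were DESeq2 (1.42.0), RLE factors, library totals, no filter, at least 10 counts in every library, effective length offsets, limma (3.58.1) on log2(TPM + 1) and log2(TPM + 0.1), the former also restricted to genes averaging at least 1 TPM, the replicate number as a block, each library left out and no fold threshold. Leaving out libraries for copy ratios and subfamily sums was added after seeing the data. Library totals ranged from 999437 to 77243214 counts.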

Additional observations from a re-analysis of the deposited data

How the results depend on the processing

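The number of Kv channel genes called higher in SAR was 4 in the reported fit, 7 with DESeq2 and 1 with at least 10 counts in every library, where 4 genes were left to test. It was 3 to 6 in all other alternatives (3 to 6 with single libraries left out). The number called lower was 0, but 2 with DESeq2, 1 without a filter on low counts, 1 with the replicate block and 0 to 1 with single libraries left out (1 without SAR replicate 1). kcnh6a was called in every alternative, and kcnq5a in every alternative that tested it. kcnip1b was not called by limma on log2(TPM + 0.1) (2.76, adjusted p = 0.0689), and dlg2 and dpp6b were not called on either TPM scale. The causes were not tested. The median log2 fold change stayed between 0.42 and 0.68 except with at least 10 counts in every library (0.09, 4 genes) and on log2(TPM + 1) (0.24, which shrinks low genes).

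The replicate numbers were not taken as pairs, since the labels name no shared pool. The methods describe pooled hearts sorted into both fractions, so same-numbered libraries may come from the same pool, which neither source states. The deviations of same-numbered libraries correlated at 0.0985 to 0.273 and those of differently numbered libraries at -0.151 to -0.0129. All 6 libraries correlated best with their own number. These matches are not independent of each other, since the deviations within a fraction cancel out over its libraries. The reported fit and the permutation test of the copies ignore any such pairing. The replicate block called 5 genes higher, adding kcng4a, and kcnip4b lower, and called the partner gene kcnf1a (2.61, adjusted p = 0.0248, edgeR); it changed no other call of a Kv channel or partner gene. Among the markers it added calls for 2 cardiomyocyte genes, 1 smooth muscle, 1 leukocyte (6 of 6 called lower) and 4 of 8 photoreceptor genes.

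Copy pairs without overlap numbered 2, and 3 to 5 with single libraries left out, where fewer libraries make separation easier. Genes near 0 changed sign. For KCNA4 the log2 fold change was -0.051 (DESeq2), -0.040 (library totals), -0.0080 (effective length offsets), -0.10 (log2(TPM + 1)) and -0.32 (log2(TPM + 0.1)). For KCNC2 it was -0.040, -0.014, -0.28, -0.31 and -0.34 in the same order, -0.31 on genes with a mean of at least 1 TPM and -0.0019 with the replicate block. For KCNB2 it was -0.0027 and -0.012 on the 2 TPM scales and -0.093 with the block, for kcnc4 -0.011, -0.11 and -0.10 likewise, and for kcnh2a -0.12 on log2(TPM + 0.1). With single libraries left out the ranges were -0.44 to 0.34 (KCNA4), -0.30 to 0.60 (KCNB2), -0.46 to 0.93 (KCNC2), -0.26 to 0.63 (kcna1a), -0.35 to 0.90 (kcnc3a), -0.64 to 0.56 (kcnc4) and -0.88 to 0.63 (kcnh2a).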
